A study of Homo sapiens with 12 samples.

Results

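The genes described here are the 5 survival genes of the BCL2 family, BCL2, BCL2L1, BCL2L2, MCL1 and BCL2A1, and its 3 pore formers, BAX, BAK1 and BOK. They were chosen by name, as every probe set that maps to 1 of these symbols and to no other, and no measured value entered the rule, although the family was picked with earlier results of these data known. This gave 22 probe sets of 41091 with 1 symbol, for 8 of the 19775 genes tested. Each gene was read from its main probe set, the one with the highest mean over the 12 arrays, and its other probe sets are given beside it. PC9 is a human lung adenocarcinoma cell line that grows on a mutant EGFR kinase, and erlotinib blocks that kinase. The arrays held RNA of 2 stable PC9 lines, a pre-miR-371 line, which expressed the hairpin precursor of miR-371-3p, and a GFP vector line that served as its control. Each line was treated at 80% confluency with 2 μM erlotinib or with the solvent DMSO for 24 h, which gave 4 groups of 3 arrays: pre-miR-371 erlotinib, pre-miR-371 DMSO, GFP vector erlotinib and GFP vector DMSO. There was 1 line of each kind, so an effect of pre-miR-371 and a difference between the particular lines cannot be told apart. The labels do not say whether the arrays of a group came from separate cultures. The paper's statistics section calls its replicates biological and from independent experiments, without naming the arrays. Each p-value reflects array-to-array spread, and the labels cannot show whether this spread is more than technical.

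BCL2 family proteins decide whether the outer membrane of mitochondria stays closed. The survival proteins BCL2, BCL-XL (from BCL2L1), BCL-w (from BCL2L2), MCL1 and BFL-1 (from BCL2A1) hold the pore formers and the BH3-only proteins in check. Once free, BAX and BAK assemble into pores that release cytochrome c and start the caspases, while BOK forms pores and is known to be held less by the survival proteins. In lung cancer cells with mutant EGFR, blocking the kinase is known to raise the BH3-only protein BIM, the product of BCL2L11. The arrays measured RNA, and these proteins are also controlled by their stability and by binding to each other.

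The miRNA that separates the lines is shown first, since it is the only designed difference between them. The RefSeq tables for GRCh38.p14 hold the mature forms of the human hairpin as miR-371a-3p, at chr19:53787716-53787738, and miR-371a-5p, at chr19:53787680-53787699, both on the plus strand. Capitals mark the seed, bases 2 to 8 from the 5′ end, and each seed was held by 1 mature name in the table.
hsa-miR-371a-3p: aAGUGCCGccaucuuuugagugu
hsa-miR-371a-5p: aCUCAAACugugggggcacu
The arrays have no probe set read here for these forms, and no site search in the 8 mRNAs was made.

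Promoter windows of 250 bases before the start site were matched in RefSeq (GRCh38.p14) for 6 of the 8 genes, with 7 windows in all. MCL1 and BCL2L2 were not matched. Windows are printed for BCL2L1, BOK and BAK1, the genes whose RNA fell most on their main probe sets in erlotinib, and for BAX, the pore former with no call. The windows lie at chr20:31723964-31724213 on the minus strand for BCL2L1 (the more upstream of 2), chr2:241558495-241558744 on the plus strand for BOK, chr6:33580277-33580526 on the minus strand for BAK1 and chr19:48954625-48954874 on the plus strand for BAX. Capitals mark matches on either strand to an ETS core (CCGGAAG), an AP-1 site (TGANTCA), an E-box (CACGTG), a STAT site (TTCNNNGAA) or a GC box (GGGCGG).
BCL2L1: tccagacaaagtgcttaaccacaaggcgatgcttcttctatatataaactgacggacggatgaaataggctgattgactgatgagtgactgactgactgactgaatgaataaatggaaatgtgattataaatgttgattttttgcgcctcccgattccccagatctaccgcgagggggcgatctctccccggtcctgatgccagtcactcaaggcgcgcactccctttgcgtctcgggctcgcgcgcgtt
BOK: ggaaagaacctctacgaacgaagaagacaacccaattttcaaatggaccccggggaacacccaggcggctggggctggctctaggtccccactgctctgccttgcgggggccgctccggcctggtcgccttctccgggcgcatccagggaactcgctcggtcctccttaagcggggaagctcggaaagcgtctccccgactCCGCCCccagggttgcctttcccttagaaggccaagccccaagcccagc
BAK1: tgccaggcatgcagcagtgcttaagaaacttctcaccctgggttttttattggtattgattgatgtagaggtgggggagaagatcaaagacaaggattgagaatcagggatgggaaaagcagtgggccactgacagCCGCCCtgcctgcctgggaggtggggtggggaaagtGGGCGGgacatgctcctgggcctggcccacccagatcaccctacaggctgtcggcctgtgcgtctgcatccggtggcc
BAX: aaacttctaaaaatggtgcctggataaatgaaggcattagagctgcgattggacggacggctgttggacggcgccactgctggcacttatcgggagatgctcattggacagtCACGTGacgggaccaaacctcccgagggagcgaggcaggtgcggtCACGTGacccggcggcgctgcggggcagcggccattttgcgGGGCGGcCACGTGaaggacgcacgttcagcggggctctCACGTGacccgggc
BAX had 4 E-boxes and 1 GC box, BAK1 had 2 GC boxes, and BOK had 1 GC box. The BCL2A1 window, not printed, had 1 STAT site, and the BCL2 window and both BCL2L1 windows had no match to these 5 motifs. Of all 35116 windows of this length, 8.52% held the ETS core, 6.57% the AP-1 site, 6.34% the E-box, 6.57% the STAT site and 42.6% the GC box. No matches overlapped in these windows. A match describes letters only, and no factor was measured at these windows.

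The values are the authors' normalized log2 expression values, so a difference of 1 is a doubling of signal. The level of a probe set depends on its own probes, and levels are therefore compared between groups of arrays within a probe set and not between genes. The array medians lay between 4.31 and 4.41, and arrays within a group correlated at r of 0.997 to 0.998. Of 9 lung epithelial markers, EPCAM, CDH1, KRT7, KRT8, KRT18 and KRT19 averaged 10.86 or more, whereas the alveolar markers NKX2-1, NAPSA and SFTPB averaged 4.48, 5.24 and 5.72. All 7 leukocyte markers measured averaged under 6. Their mean per array was 3.96 to 4.12 in pre-miR-371 erlotinib and 3.60 to 3.73 in pre-miR-371 DMSO, and 3.88 to 3.97 in GFP vector erlotinib and 3.54 to 3.75 in GFP vector DMSO. This shift moved with erlotinib, and its part in the results was not tested. Of 8 fibroblast markers, COL1A1 alone averaged 6 or more.

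Erlotinib lowered the RNA of 4 of the 8 genes in both lines, namely the survival genes BCL2L1 and MCL1 and the pore formers BAK1 and BOK. A gene was called changed at an adjusted p under 0.05 in limma, with adjustment over all genes tested. In pre-miR-371 cells 4 of 8 genes were lower and 0 were higher (5 had an unadjusted p under 0.05), against a background of 22.2% of all genes lower and 24.8% higher. An unadjusted limma p under 0.05 was met there by 10262 of all 19775 genes. In the GFP vector line 4 of 8 were lower and 1, BCL2L2, was higher, against 23.4% lower and 26.5% higher over all genes. With a fold over 1.5 as well, BCL2L1 and BOK remained in each line, where 9.33% of all genes fell this far in pre-miR-371 cells and 11.7% in GFP vector cells. The median log2 fold change of the 8 genes was -0.16 in the pre-miR-371 line and -0.13 in the GFP vector line, beside -0.03 and 0.00 over all genes in those lines. The 3 erlotinib arrays lay wholly below the 3 DMSO arrays for 4 genes in each line, which 27.8% of all genes did in the pre-miR-371 line and 25.7% in the GFP vector line. With 3 arrays against 3, an exact two-sided permutation test cannot go below 0.1, and it gave 0.1 for each of these 4 genes in each line.

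**Figure D1:**
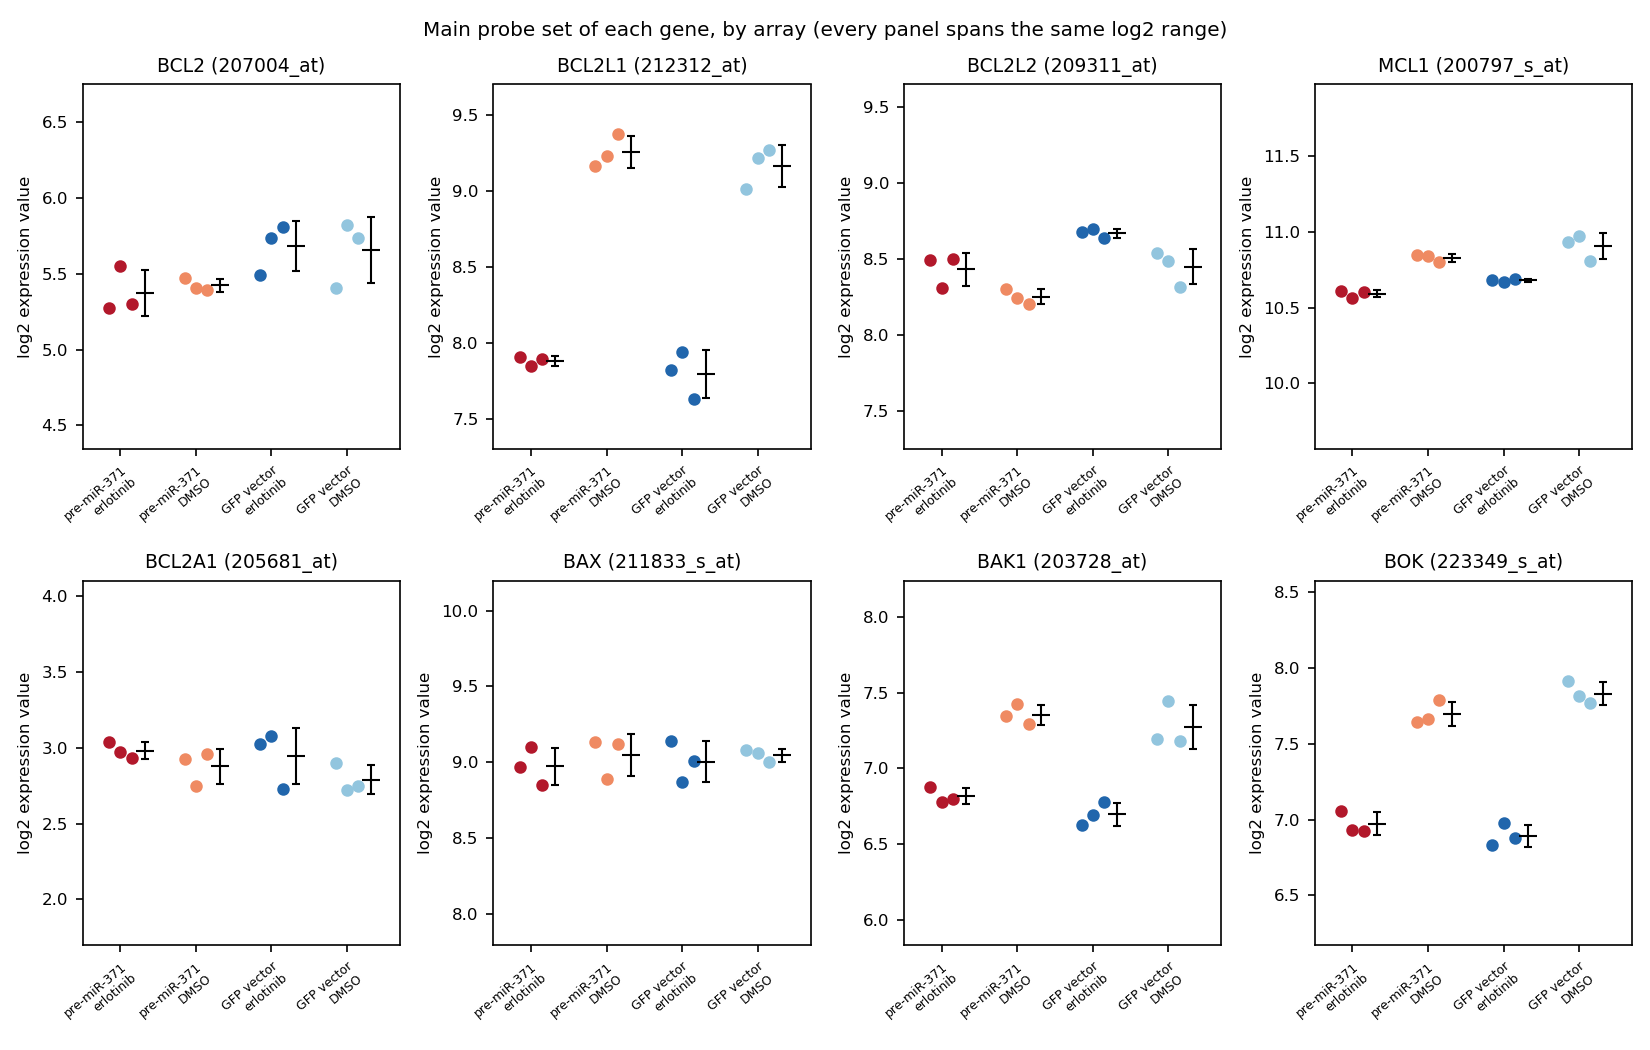
Log2 expression value of the main probe set of each of the 8 genes, by array. Points are the 3 arrays of a group, the black bar is the mean ± SD, and every panel spans the same log2 range. In BCL2L1, BAK1 and BOK the erlotinib arrays of both lines sit clearly below the DMSO arrays, and in MCL1 the gap is narrow. In BCL2, BCL2A1 and BAX the erlotinib and DMSO arrays overlap within each line.

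BCL2L1, which encodes BCL-XL, had the largest erlotinib response of the 8 main probe sets. Its 3 arrays read 7.91, 7.85 and 7.89 in pre-miR-371 erlotinib, against 9.17, 9.23 and 9.38 in pre-miR-371 DMSO. In GFP vector erlotinib they read 7.82, 7.94 and 7.63, against 9.01, 9.22 and 9.27 in GFP vector DMSO. All 6 erlotinib arrays thus lay more than 1 log2 unit below the lowest DMSO array. The log2 fold change was -1.37 in each line, with an SE of 0.09 (adjusted p = 8.8e-08 in the pre-miR-371 line and 6.7e-08 in the GFP vector line), which is a level 2.59-fold lower for pre-miR-371 cells and 2.58-fold lower for GFP vector cells. The responses of the lines differed by -0.01, with a 95% interval of -0.29 to 0.28. The DMSO groups of the lines overlapped each other, as did the erlotinib groups.

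The 3 other BCL2L1 probe sets were dimmer, with means of 4.82 to 5.44. Probe set 206665_s_at gave log2 fold changes of -1.68 in the pre-miR-371 line and -1.58 in the GFP vector line, and 215037_s_at gave -1.29 and -1.70 in these lines. Probe set 231228_at gave -0.19 in the pre-miR-371 line (adjusted p = 0.098) and -0.66 in the GFP vector line. Its 3 arrays read 5.45, 5.42 and 5.27 in pre-miR-371 erlotinib and 5.03, 5.002 and 5.19 in GFP vector erlotinib, a difference of 0.31 between the lines (adjusted p = 0.035). The difference of responses on this probe set was 0.47 and missed the threshold (adjusted p = 0.087). On 206665_s_at the log2 fold change of the pre-miR-371 line over the GFP vector line was -0.50 averaged over treatments (adjusted p = 0.010), while the main probe set gave 0.09. In erlotinib the lines therefore differed in opposite directions on these 2 dimmer probe sets, with 206665_s_at at -0.55 (limma adjusted p = 0.042). In DMSO both were lower in pre-miR-371 cells, at -0.46 on 206665_s_at and -0.17 on 231228_at. Neither DMSO difference passed the test (limma adjusted p = 0.13 and 0.27).

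MCL1, whose protein is short-lived, showed a small and even decrease on its main probe set. The 3 arrays read 10.61, 10.56 and 10.60 in pre-miR-371 erlotinib, against 10.85, 10.84 and 10.80 in pre-miR-371 DMSO. They read 10.68, 10.67 and 10.69 in GFP vector erlotinib, against 10.93, 10.97 and 10.81 in GFP vector DMSO. The groups did not overlap within a line, and the log2 fold change was -0.24 (SE 0.05, adjusted p = 0.0032) in the pre-miR-371 line and -0.23 (SE 0.05, adjusted p = 0.0040) in the GFP vector line. Its interval reached -0.36 in the pre-miR-371 line and -0.35 in the GFP vector line.

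The size of the MCL1 decrease depended on the probe set. On 200798_x_at, also well lit with a mean of 9.34, the arrays read 8.98, 8.92 and 9.10 in pre-miR-371 erlotinib, against 9.93, 9.94 and 10.07 in pre-miR-371 DMSO. On the same probe set they read 8.77, 8.57 and 8.59 in GFP vector erlotinib, against 9.80, 9.73 and 9.66 in GFP vector DMSO. This is a log2 fold change of -0.98 in the pre-miR-371 line and -1.08 in the GFP vector line, larger in each line than on the main probe set. Probe sets with the ending x carry probes that can also match other transcripts. The dim probe sets 200796_s_at (-1.03 in the pre-miR-371 line and -0.79 in the GFP vector line) and 214056_at (-0.70 and -0.84 in these lines) also passed the test, whereas 214057_at and 227175_at, with means of 4.61 and 2.91, did not in either line. So 4 of 6 MCL1 probe sets fell in each line, and the main one fell least among them.

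BCL2L2, which encodes BCL-w, was the only survival gene called higher on its main probe set, in the GFP vector line, and the pre-miR-371 line just missed the threshold. Its arrays read 8.50, 8.31 and 8.50 in pre-miR-371 erlotinib, against 8.30, 8.25 and 8.21 in pre-miR-371 DMSO. They read 8.68, 8.70 and 8.64 in GFP vector erlotinib, against 8.54, 8.49 and 8.32 in GFP vector DMSO. The erlotinib arrays lay above the DMSO arrays within each line, narrowly in the pre-miR-371 line. The share of all genes with erlotinib arrays wholly above is not given here. The log2 fold change was 0.18 (SE 0.07, adjusted p = 0.060) in the pre-miR-371 line and 0.22 (SE 0.07, adjusted p = 0.023) in the GFP vector line, and the difference between these responses was -0.04 (95% interval -0.27 to 0.18). The rise was lost without GFP vector DMSO replicate 3 (0.16, adjusted p = 0.096) and without GFP vector erlotinib replicate 1 or 2 (adjusted p = 0.055 and 0.064). In the pre-miR-371 line it passed the threshold without GFP vector DMSO replicate 1 or 3 (adjusted p = 0.049 and 0.036) or pre-miR-371 erlotinib replicate 2 (0.25, adjusted p = 0.019). The dim probe set 1555140_a_at gave -0.08 in the pre-miR-371 line and -0.18 in the GFP vector line, neither past the test.

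BCL2 itself was dim on all 4 of its probe sets, with means of 3.74 to 5.53, and these did not move alike. On the main probe set, 207004_at, the arrays read 5.27, 5.55 and 5.30 in pre-miR-371 erlotinib, against 5.47, 5.41 and 5.39 in pre-miR-371 DMSO. They read 5.49, 5.73 and 5.81 in GFP vector erlotinib, against 5.41, 5.82 and 5.73 in GFP vector DMSO. The erlotinib and DMSO arrays overlapped in each line, with a log2 fold change of -0.05 (95% interval -0.30 to 0.20) in the pre-miR-371 line and 0.03 (-0.23 to 0.28) in the GFP vector line. On 203685_at the arrays read 3.57, 3.75 and 3.24 in pre-miR-371 erlotinib, against 4.71, 4.68 and 4.72 in pre-miR-371 DMSO. There they read 3.30, 3.53 and 3.43 in GFP vector erlotinib, against 5.52, 5.13 and 5.23 in GFP vector DMSO. That probe set fell by a log2 fold change of -1.18 (adjusted p = 5.2e-06) in the pre-miR-371 line and -1.87 (adjusted p = 5.3e-08) in the GFP vector line, the largest change of the 22 probe sets. In DMSO it was also lower in pre-miR-371 cells, with a log2 fold change of -0.59 (adjusted p = 0.028), and the difference of responses, 0.69, missed the threshold (adjusted p = 0.11). The platform annotation lists 203685_at under the record of the alpha transcript of BCL2 and 207004_at and 207005_s_at under that of the beta transcript. Probe set 203684_s_at gave -0.60 in the pre-miR-371 line (adjusted p = 0.0099) and -0.42 in the GFP vector line (adjusted p = 0.054), and 207005_s_at gave -0.15 and 0.18 in these lines, neither past the test. The rule for the main probe set thus decided whether BCL2 was counted as changed, and the mean of all 4 probe sets gave -0.50 in the pre-miR-371 line and -0.52 in the GFP vector line (adjusted p = 4.5e-05 and 2.3e-05).

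BCL2A1, an NF-κB target in blood cells, had the lowest readings of the main probe sets, between 2.72 and 3.07 on all 12 arrays. Its single probe set averaged 2.98 ± 0.05 in pre-miR-371 erlotinib and 2.88 ± 0.11 in pre-miR-371 DMSO, and 2.94 ± 0.19 in GFP vector erlotinib and 2.79 ± 0.10 in GFP vector DMSO (SD, n = 3 arrays each). The groups overlapped. The log2 fold change was 0.10 (95% interval -0.10 to 0.31) in the pre-miR-371 line and 0.16 (-0.05 to 0.36) in the GFP vector line, which passed the threshold when GFP vector erlotinib replicate 3 was left out (0.26, adjusted p = 0.022).

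Of the pore formers, BOK fell most. Its arrays read 7.06, 6.93 and 6.93 in pre-miR-371 erlotinib, against 7.64, 7.66 and 7.79 in pre-miR-371 DMSO. They read 6.83, 6.97 and 6.88 in GFP vector erlotinib, against 7.91, 7.81 and 7.77 in GFP vector DMSO. The drug and DMSO arrays were far apart in each line, with a log2 fold change of -0.72 (SE 0.07, adjusted p = 1.9e-06) in the pre-miR-371 line and -0.94 (SE 0.07, adjusted p = 1.4e-07) in the GFP vector line, or 1.65-fold and 1.91-fold lower in these lines. BOK had the largest difference of responses among the main probe sets, 0.21, and it did not pass the test over all genes (unadjusted p = 0.047, adjusted p = 0.32). The dim BOK probe set 221454_at gave -0.24 in the pre-miR-371 line and -0.15 in the GFP vector line, neither past the test.

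BAK1, which encodes the pore former that sits in the outer membrane of healthy cells, also fell in both lines. Its arrays read 6.88, 6.78 and 6.80 in pre-miR-371 erlotinib, against 7.34, 7.42 and 7.29 in pre-miR-371 DMSO. They read 6.63, 6.69 and 6.78 in GFP vector erlotinib, against 7.20, 7.44 and 7.18 in GFP vector DMSO. The log2 fold change was -0.54 (SE 0.08, adjusted p = 7.8e-05) in the pre-miR-371 line and -0.57 (SE 0.08, adjusted p = 3.7e-05) in the GFP vector line, just under a fold of 1.5 (1.45-fold and 1.49-fold lower in these lines). BAK1 had a single probe set, so this decrease has no second reading.

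BAX, which moves to mitochondria from the cytosol when cells are told to die, gave no call. Its arrays read 8.97, 9.10 and 8.85 in pre-miR-371 erlotinib, against 9.13, 8.89 and 9.12 in pre-miR-371 DMSO. They read 9.14, 8.87 and 9.01 in GFP vector erlotinib, against 9.08, 9.06 and 9.001 in GFP vector DMSO. All 4 groups overlapped. The log2 fold change was -0.08 (95% interval -0.27 to 0.12) in the pre-miR-371 line and -0.04 (-0.24 to 0.16) in the GFP vector line. The BAX probe set 208478_s_at, with a mean of 8.32, gave -0.05 in the pre-miR-371 line and 0.08 in the GFP vector line.

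Across the 22 probe sets, 11 fell in pre-miR-371 cells and 11 in GFP vector cells, with 0 and 1 higher in these lines. Of all 41091 probe sets tested, 19.6% fell in pre-miR-371 cells and 22.2% in GFP vector cells, while 8376 rose in pre-miR-371 cells and 8862 in GFP vector cells. The probe sets of a gene share its transcripts and are not independent. Of the 22, 14 had a mean under 6, the limit taken here for dim probe sets. The array medians were 4.31 to 4.41 and the upper quartiles 6.72 to 6.92, so this limit covers more than the dimmest probes.

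**Figure D2:**
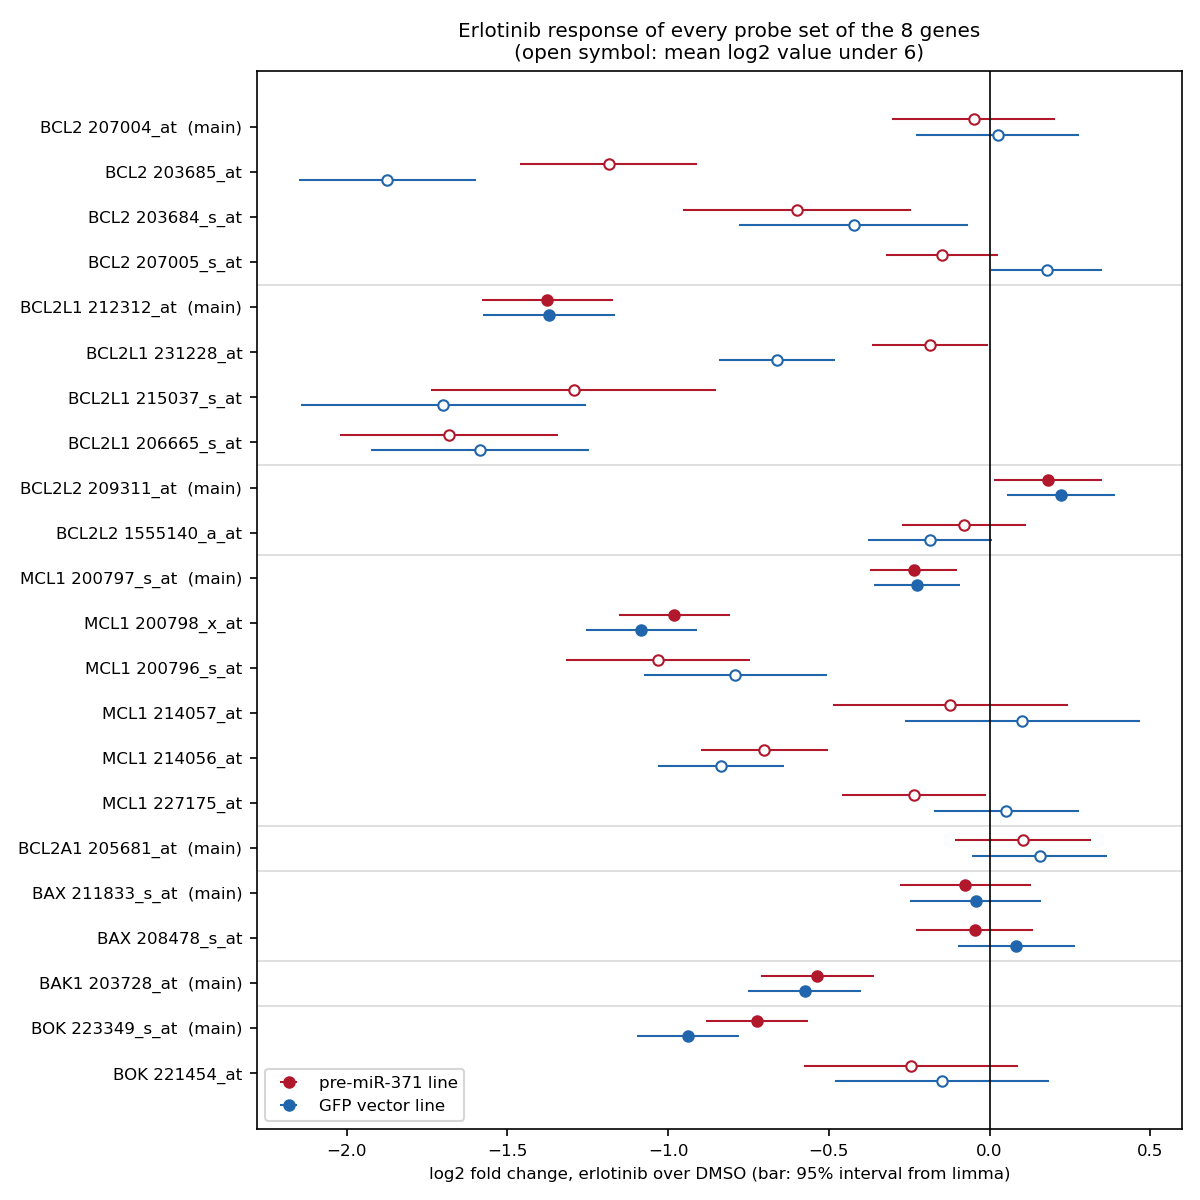
Log2 fold change of erlotinib over DMSO for each of the 22 probe sets, in the pre-miR-371 line (red, upper) and the GFP vector line (blue, lower), with 95% intervals from limma. Open symbols have a mean log2 value under 6. BCL2L1 is negative on every probe set, MCL1 is -0.24 and -0.23 on its main probe set and near -1 on 200798_x_at, and BCL2 is near 0 on its main probe set and reaches -1.87 on 203685_at.

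How the arrays were scaled mattered for the small changes. On the deposited scale erlotinib raised 4903 genes and lowered 4383 in pre-miR-371 cells, and it raised 5235 and lowered 4618 in GFP vector cells. For another scale, every array was centred on its median over the main probe sets of all genes tested. The array medians of 4.31 to 4.41 given above are over all probe sets and were not used for this. After centring, erlotinib raised 3498 and lowered 9066 genes in pre-miR-371 cells. It raised 3744 and lowered 8299 in GFP vector cells. These counts shifted because the median fold change of all genes moved to -0.22 in the pre-miR-371 line and -0.19 in the GFP vector line. BCL2L1, MCL1, BAK1 and BOK were called lower on either scale, and relative to that median they changed by -1.34, -0.20, -0.50 and -0.69 in the pre-miR-371 line. These 4 values were -1.37, -0.23, -0.58 and -0.94 in the GFP vector line. BAX passed the threshold only after centring, at -0.27 in the pre-miR-371 line (adjusted p = 0.021) and -0.24 in the GFP vector line (adjusted p = 0.035), which is -0.04 and -0.05 relative to the median of those lines. The rise of BCL2L2 was absent after centring, at -0.01 in the pre-miR-371 line and 0.03 in the GFP vector line, or 0.21 and 0.22 relative to the median.

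The lines were then compared under the same treatment. In DMSO 0 of the 8 genes differed between the pre-miR-371 and GFP vector lines by limma, where 5.25% of all genes were called in either direction. Of the 8, 1 (BCL2L2) had an unadjusted limma p under 0.05 in DMSO, as did 4509 of all 19775 genes. In erlotinib 1 of 8 was called, BCL2L2, which was lower with pre-miR-371, as were 9.46% of all genes. Averaged over treatments, pre-miR-371 cells had less BCL2L2 and BCL2, 2 of 8 where 13.1% of all genes were lower. With quantile normalization repeated, all genes split into 2203 higher and 1872 lower in that comparison, against 1588 and 2588 on the deposited scale. These counts are close to the background. None reached a fold of 1.5.

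For BCL2L2, from the arrays given above, the pre-miR-371 arrays lay below the GFP vector arrays both in erlotinib and in DMSO. The share of all genes whose arrays lay apart between the lines is not given here, so nothing is read from this. The log2 fold change was -0.24 (SE 0.07, adjusted p = 0.046) in erlotinib and -0.20 (SE 0.07, adjusted p = 0.14) in DMSO, and averaged over treatments it was -0.22 (SE 0.05, adjusted p = 0.012). The dim probe set 1555140_a_at gave -0.21 averaged over treatments (adjusted p = 0.040). The call in erlotinib held only without GFP vector DMSO replicate 1 or 3 among the arrays left out in turn, and for the other 10 arrays the adjusted p was 0.056 to 0.16. The averaged call held whichever array was left out.

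BCL2 averaged -0.27 (SE 0.08, adjusted p = 0.039) in the pre-miR-371 line over the GFP vector line on its main probe set. The groups overlapped in each treatment, at -0.30 (adjusted p = 0.098) in erlotinib and -0.23 (adjusted p = 0.27) in DMSO. The averaged call was lost when any of 9 of the 12 arrays was left out (adjusted p up to 0.088), GFP vector DMSO replicate 1, GFP vector erlotinib replicate 1 and pre-miR-371 erlotinib replicate 2 being the exceptions. It was also lost with quantile normalization repeated (-0.25, adjusted p = 0.064), and without GFP vector DMSO replicate 1 the comparison in erlotinib passed (adjusted p = 0.047). On 207005_s_at, with a mean of 3.74, the log2 fold change between the lines was -0.34 in erlotinib (limma adjusted p = 0.020) and -0.01 in DMSO. In erlotinib 203684_s_at gave -0.25 and 203685_at went the other way at 0.10. Neither passed the test (limma adjusted p = 0.37 and 0.67).

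The other members differed little between the lines on their main probe sets. Averaged over treatments, the log2 fold changes were 0.09 for BCL2L1, -0.08 for MCL1, 0.06 for BCL2A1, -0.02 for BAX, 0.10 for BAK1 and -0.03 for BOK, with 95% intervals that all lay between -0.17 and 0.23. In erlotinib MCL1 was at -0.09 and BAK1 at 0.12 in the pre-miR-371 line over the GFP vector line. Neither passed the test (limma adjusted p = 0.32 and 0.33). MCL1 went the other way on 200798_x_at, where the pre-miR-371 line was higher by 0.36 in erlotinib (adjusted p = 0.015) and by 0.30 averaged over treatments (adjusted p = 0.0043). A direction for MCL1 between the lines therefore cannot be given.

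**Figure D3:**
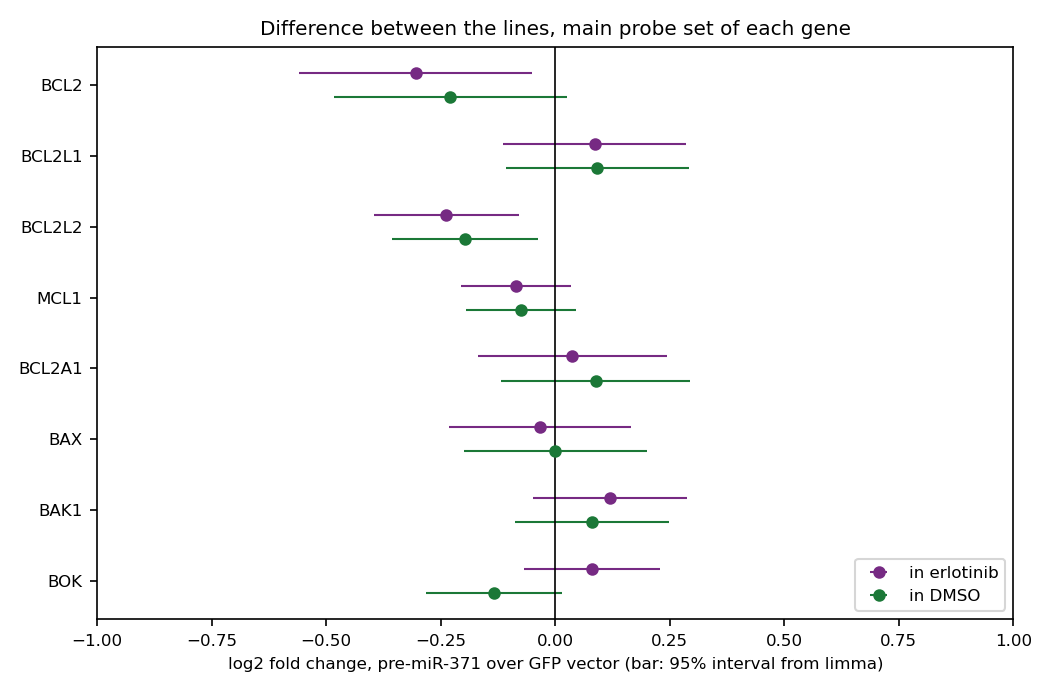
Log2 fold change of the pre-miR-371 line over the GFP vector line for the main probe set of each gene, in erlotinib (purple, upper) and in DMSO (green, lower), with 95% intervals from limma. BCL2L2 is at -0.24 in erlotinib and -0.20 in DMSO, and BCL2 is at -0.30 and -0.23 in these treatments. The interval of BCL2 in DMSO and the intervals of the other 6 genes include 0.

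The difference between the erlotinib responses of the lines was tested directly. It was called for 0 of the 8 genes by limma, against 2% of all genes. Of the 8, 1 (BOK) had an unadjusted limma p under 0.05, as did 2974 of all 19775 genes. It was called for 0 of the 22 probe sets, where 288 of all 41091 probe sets were called higher and 96 lower. The 95% interval of the difference was narrowest for MCL1, at -0.18 to 0.16, and widest for BCL2, at -0.43 to 0.28. It was -0.29 to 0.28 for BCL2L1, -0.20 to 0.28 for BAK1 and 0.00 to 0.42 for BOK.

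Genes that act beside the 8 were read from lists chosen for their roles. The counts of each list stand beside the background over all genes given above, of which erlotinib raised 24.8% and lowered 22.2% in pre-miR-371 cells and raised 26.5% and lowered 23.4% in GFP vector cells, and its median beside the medians of all genes, -0.03 and 0.00 in these lines. With 4 to 12 genes measured in a list, no list is called apart from that background. Of 8 BH3-only genes, whose proteins free or activate the pore formers, 7 were measured. In the pre-miR-371 line 5 rose and 2 fell, and in the GFP vector line 3 rose and 2 fell, with list medians of 0.41 and 0.18 in these lines. BMF, whose protein is tied to the cytoskeleton in healthy cells, rose most, averaging 7.97 in pre-miR-371 erlotinib and 5.04 in pre-miR-371 DMSO, and 7.70 in GFP vector erlotinib and 4.81 in GFP vector DMSO. Its log2 fold change was 2.93 in the pre-miR-371 line and 2.88 in the GFP vector line. BCL2L11, which encodes BIM, averaged 9.28 in pre-miR-371 erlotinib and 8.03 in pre-miR-371 DMSO, and 9.40 in GFP vector erlotinib and 7.91 in GFP vector DMSO. HRK, a BH3-only gene known from neurons, rose by 1.31 in the pre-miR-371 line and 1.27 in the GFP vector line. BID, cut by caspase-8 to activate BAX and BAK, went the other way, at -0.52 in the pre-miR-371 line and -0.59 in the GFP vector line, as did BIK, at -0.44 and -0.55. PMAIP1, which encodes NOXA, a partner of MCL1, rose in the pre-miR-371 line (0.41, adjusted p = 0.00025) and had 0.16 in the GFP vector line (adjusted p = 0.071), and these responses were not shown to differ (adjusted p = 0.24).

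Of 6 partners of the pore formers in the outer membrane, 5 fell in each line, and TOMM20 rose in the GFP vector line (0.20, adjusted p = 0.0055) and had 0.06 in the pre-miR-371 line. The list median was -0.44 in the pre-miR-371 line and -0.46 in the GFP vector line. TOMM22, a receptor of the protein import machinery, had the largest change, at -0.60 in the pre-miR-371 line and -0.64 in the GFP vector line. VDAC2, the channel that carries BAK in the membrane, had -0.50 in the pre-miR-371 line and -0.43 in the GFP vector line, VDAC1 had -0.49 and -0.41, and MTCH2, a receptor for BID, had -0.39 and -0.50. After centring, 6 of the 6 fell and 0 rose in pre-miR-371 cells, and 5 fell and 0 rose in GFP vector cells. Of all 19775 genes, 9066 then fell and 3498 rose in pre-miR-371 cells, and 8299 fell and 3744 rose in GFP vector cells.

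Downstream of the pore, 4 of 6 apoptosome and caspase genes were measured, and 2 rose and 1 fell in each line, with list medians of 0.16 in the pre-miR-371 line and 0.35 in the GFP vector line. CASP9, the caspase that the apoptosome activates, rose by 0.60 in the pre-miR-371 line and 1.01 in the GFP vector line. CYCS, which encodes cytochrome c, was at -0.73 in the pre-miR-371 line and -0.86 in the GFP vector line. Of 5 genes measured for IAP proteins, which block caspases, and their antagonists, 3 rose and 1 fell in the pre-miR-371 line and 2 rose and 1 fell in the GFP vector line, with list medians of 0.15 and 0.16 in these lines. BIRC5, which encodes survivin and is made in dividing cells, was at -0.87 in the pre-miR-371 line and -1.32 in the GFP vector line, and BIRC2 rose by 0.69 and 0.59 in these lines. DIABLO, an antagonist of the IAP proteins, had 0.15 in the pre-miR-371 line and 0.16 in the GFP vector line, a sign that turned on centring the arrays. Between the lines, BIRC2 had a log2 fold change of -0.36 in erlotinib (limma adjusted p = 0.0022) and of -0.47 in DMSO (limma adjusted p = 0.0018). Of the 5 genes, 2 were higher and 1 was lower with pre-miR-371 in erlotinib, the list reaching 0.42. In DMSO 0 were higher and 1 was lower. Of all 19775 genes, 1286 were higher and 1870 lower in erlotinib, and 320 were higher and 719 lower in DMSO.

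Of 5 other BCL2 relatives, 2 rose and 1 fell in the pre-miR-371 line and 1 rose and 1 fell in the GFP vector line, with list medians of -0.23 and 0.05 in these lines. BCL2L12 was at -0.59 in the pre-miR-371 line and -0.89 in the GFP vector line. BCL2L14 was at 0.55 in the pre-miR-371 line and 1.04 in the GFP vector line on a dim main probe set. Of 7 enzymes that add or remove ubiquitin on MCL1 or serve that pathway, 3 rose and 1 fell in each line, with list medians of 0.11 in the pre-miR-371 line and 0.13 in the GFP vector line. USP9X, a deubiquitinase that spares MCL1 protein, rose by 0.64 in each line. UBE2K, a ubiquitin-conjugating enzyme, was at -0.60 in the pre-miR-371 line and -0.80 in the GFP vector line.

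Target genes of NF-κB and p53, transcription factors known to drive BCL2A1 and BAX among others, moved in mixed directions. Of 11 NF-κB targets measured, 2 rose and 3 fell in the pre-miR-371 line and 3 rose and 4 fell in the GFP vector line, with list medians of -0.14 and -0.09 in these lines. TNFAIP3, which encodes A20, a brake on NF-κB, was at -1.67 in the pre-miR-371 line and -2.33 in the GFP vector line, while ICAM1, an adhesion molecule, rose by 0.97 and 1.32 in these lines. Of 12 p53 targets measured, 6 rose and 4 fell in each line. AEN, a nuclease gene, was at -2.02 in the pre-miR-371 line and -2.11 in the GFP vector line, and TNFRSF10B, the death receptor DR5, was at -1.34 and -1.40. XPC, a DNA repair gene, rose by 0.90 in the pre-miR-371 line and 1.08 in the GFP vector line. After centring, 2 NF-κB targets rose and 6 fell in the pre-miR-371 line and 2 rose and 5 fell in the GFP vector line. In each line 5 p53 targets rose and 5 fell. Of all 19775 genes, 3498 then rose and 9066 fell in the pre-miR-371 line, and 3744 rose and 8299 fell in the GFP vector line. The median of the p53 list, 0.16 in the pre-miR-371 line and 0.20 in the GFP vector line, was then -0.03 and 0.00. Over all genes the centred median was -0.22 and -0.19 in these lines.

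**Figure D4:**
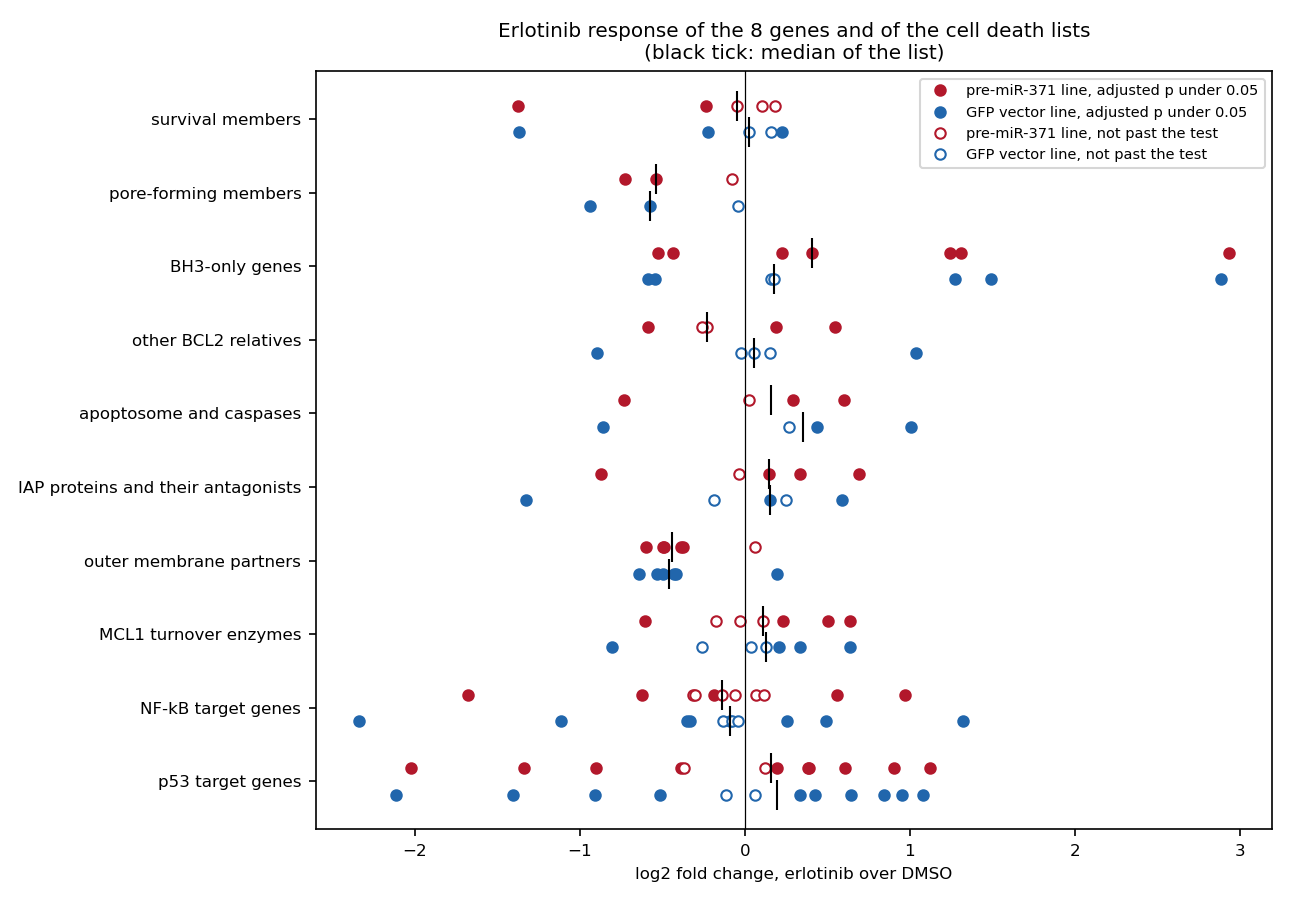
Log2 fold change of erlotinib over DMSO for the 8 genes and for each cell death list, in the pre-miR-371 line (red, upper) and the GFP vector line (blue, lower). Filled points passed an adjusted p under 0.05, open points did not, and black ticks are list medians. BMF reaches 2.93 and 2.88 at the far right, and 5 of the 6 outer membrane partners lie below 0 in each line.

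The genes whose values ran most like each member over the 12 arrays were named by Pearson's r among genes with a mean of at least 6. They were SMURF2 (r = 0.995) and LRPPRC (0.992) for BCL2L1, POLR2D (0.995) and SAC3D1 (0.995) for BOK, TBPL1 (0.981) and ARMC1 (0.978) for BAK1, TMEM147 (0.978) and WDR36 (0.978) for MCL1, and ZNF565 (0.952) and ZBTB14 (0.947) for BCL2L2. For the members that gave no erlotinib call the best matches were weaker, NPLOC4 (0.820) and PPIL2 (0.786) for BCL2, LACTB (0.845) and ASB9 (0.810) for BCL2A1, and TAF15 (0.808) and DOLPP1 (0.766) for BAX. These 12 arrays share 2 lines and 1 drug contrast, and the best of about 9650 genes was taken each time, so the values describe likeness only.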

How the data were processed

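Total RNA of the PC9 lines was labelled and hybridised to 12 Affymetrix Hgu133plus2 arrays. The deposited files hold log2 values, 1 for each probe set on each array, which the authors had normalized (quantile normalization is named in the paper's methods, and RMA and affy in the submitters' processing notes, versions not given in the sources used here). Of 54675 probe sets, 41097 had 1 symbol in the platform annotation, 1801 several and 11777 none. Samples were grouped by their labels. Fold changes, SE and p-values came from limma (3.58.1, under R 4.3.3), the package the methods name, fitted with 1 mean per group to all 12 arrays, adjusted by Benjamini-Hochberg over 19775 genes, or over 41091 probe sets for values of other probe sets. Calls needed an adjusted p under 0.05, and the methods' fold of 1.5 was noted. The fit was tested on simulated data. Genes named are the 8 members, up to 4 per list with the smallest p per comparison, not all of them printed, and the 2 most like each member. The members and lists were chosen with earlier results of these data known. Alternatives were array weights, quantile normalization repeated, a block for the replicate number, arrays centred on their medians, trended and robust eBayes, the mean of probe sets, every probe set, only the groups compared, the fold limit, the methods' t-test, dim probe sets (mean under 6) left out and each array left out. Centring used the median of each array over the main probe sets of the genes tested. Sequences are from RefSeq tables (GRCh38.p14). Figures were drawn with matplotlib 3.10.9.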

Additional observations from a re-analysis of the deposited data

Results flagged for a closer look

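Among the genes of the lists, 4 had erlotinib responses that differed between the lines by limma's test of the difference (pre-miR-371 line minus GFP vector line, log2 scale). They were 1 of 5 genes measured for IAP proteins and their antagonists, 2 of 11 NF-κB targets and 1 of 12 p53 targets. Of all genes, 2% were called in this test, and no gene of the other lists was. BIRC5 differed by 0.45 (adjusted p = 0.013), falling less in the pre-miR-371 line, and the difference kept its call under every alternative run except the fold limit of 1.5, which it does not reach. TNFAIP3 differed by 0.66 (adjusted p = 0.0062), also falling less in the pre-miR-371 line, with its call kept under every alternative run. CD83, an activation marker of dendritic cells and an NF-κB target, differed by 0.49 (adjusted p = 0.048), at -0.62 in the pre-miR-371 line and -1.11 in the GFP vector line. That call was lost for most arrays left out, with an adjusted p of up to 0.11. SESN1, a p53 target, differed by -0.46 (adjusted p = 0.035), at 0.38 in the pre-miR-371 line and 0.84 in the GFP vector line, and its call was likewise lost for most arrays left out, with an adjusted p of up to 0.087. CD83 and SESN1 do not reach the fold limit either. None of the 8 members or their 22 probe sets was singled out this way. With 3 arrays a group, single outlying arrays were not tested.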

How the results depend on the processing

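The erlotinib decreases of BCL2L1, MCL1, BAK1 and BOK kept their direction and call in both lines under every alternative run, each array left out included, except that MCL1 and BAK1 lie under the fold limit of 1.5. Of 1044 values of single members under an alternative, 936 kept direction and side of the threshold, 30 lost the call, 19 gained one and 59 changed sign. In 58 of these 59 neither value was called, and the largest was 0.24 in size. The other was BCL2 in the GFP vector line, at -0.52 with the mean of all probe sets, against 0.03 on the main probe set. Centring gave BCL2A1 -0.0868 and BCL2L2 -0.00918 for erlotinib in the pre-miR-371 line, and BCL2 -0.17 and BCL2A1 -0.0393 for erlotinib in the GFP vector line. Repeating quantile normalization gave BAX 0.0197 and BCL2 -0.0572 for erlotinib in the GFP vector line, BAX 0.00944 between the lines in erlotinib, BAX 0.0364 and BOK 0.0465 between the lines averaged, and BAK1 -0.00563 for the difference of responses. Array weights gave BCL2 0.00822 for erlotinib in the pre-miR-371 line, BCL2 -0.0828 for erlotinib in the GFP vector line, BAX 0.0139 between the lines in erlotinib, BAK1 -0.0338 and BAX -0.0221 between the lines in DMSO, and BAX 0.036, BCL2 0.091, BCL2L1 0.046 and MCL1 0.0249 for the difference of responses. The mean of probe sets gave BAX 0.0204 and BCL2 -0.52 for erlotinib in the GFP vector line, BCL2L1 -0.0406 and BOK -0.00246 between the lines in erlotinib, BAX -0.0244 and BCL2L1 -0.24 between the lines in DMSO, BCL2L1 -0.14 between the lines averaged, and BCL2 0.0276, BCL2L1 0.19 and BCL2L2 0.0318 for the difference of responses. With 1 array left out the ranges that crossed 0 were BCL2 -0.14 to 0.00132 for erlotinib in the pre-miR-371 line, BCL2 -0.0967 to 0.12 and BAX -0.11 to 0.0261 for erlotinib in the GFP vector line, BCL2A1 -0.0696 to 0.10 and BAX -0.10 to 0.0347 between the lines in erlotinib, BAX -0.0425 to 0.0789 between the lines in DMSO, BAX -0.0503 to 0.0233 between the lines averaged, and BCL2 -0.17 to 0.0472, BCL2L1 -0.0891 to 0.0714, BCL2L2 -0.0867 to 0.0241, MCL1 -0.0455 to 0.0375, BCL2A1 -0.16 to 0.0142, BAX -0.11 to 0.0343 and BAK1 -0.0452 to 0.0859 for the difference of responses. The cause of these shifts was not tested. Among the other list genes 1915 values held, 199 lost the call and 9 turned. Centring turned DIABLO to -0.0436 in the pre-miR-371 line and -0.0394 in the GFP vector line and BCL2L13 to -0.0012 in the pre-miR-371 line. With the mean of probe sets, BTRC was -0.0234 in the pre-miR-371 line and -0.0427 in the GFP vector line, BCL2L13 and BCL2L14 were -0.12 and -0.0322 in the pre-miR-371 line, and between the lines averaged over treatments CASP9 was 0.0036 and CYCS -0.0687.

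Of the 8 members, calls between the lines in DMSO, 0 on the deposited values, were 2 with array weights and 1 each with dim probe sets left out, trended and robust eBayes or the mean of probe sets. Averaged over treatments the 2 calls became 3 with array weights or with trended and robust eBayes, 1 with quantile normalization repeated and 0 with the fold limit. With dim probe sets left out 6 members were tested, BCL2 not among them, and 1 was called. In erlotinib the 1 call became 0 with every probe set tested, only the 2 groups, quantile normalization repeated, the methods' t-test after Benjamini-Hochberg or the fold limit, and 2 by the methods' t-test unadjusted. With the fold limit, erlotinib calls were 2 in each line, against 4 in the pre-miR-371 line and 5 in the GFP vector line, and the other alternatives on all arrays gave 4 or 5 in each line. Leaving out 1 array gave 4 to 5 erlotinib calls in the pre-miR-371 line, 4 to 6 in the GFP vector line, 0 to 2 between the lines in erlotinib, 1 to 2 averaged, and 0 to 0 in DMSO and for the difference of responses.

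The counts below are out of 19775 genes, except 41091 probe sets with every probe set and 9650 genes with dim probe sets left out. Counts over different totals cannot be compared as shares. Over all genes, erlotinib calls in the pre-miR-371 line (9286) were 16429 with every probe set, 4328 with the fold limit and 8599 to 9551 with 1 array left out. In the GFP vector line (9853) they were 17966, 5104 and 9284 to 9853 under the same 3 changes. The difference of responses (395 calls) gave 1066 with array weights, 936 with dim probe sets left out, 1060 with trended and robust eBayes, 633 with quantile normalization repeated, 158 with the fold limit and 204 to 406 with 1 array left out. The lines in erlotinib (3156) gave 1347 by the methods' t-test after Benjamini-Hochberg, 5288 unadjusted, 245 with the fold limit and 1760 to 3646 with 1 array left out. In DMSO (1039) they gave 3800 with array weights, 2095 with dim probe sets left out, 2176 with trended and robust eBayes, 246 with only the 2 groups, 46 by the methods' t-test after Benjamini-Hochberg, 3699 unadjusted, 89 with the fold limit and 276 to 1404 with 1 array left out. Averaged over treatments (4176) they gave 6329 with every probe set, 80 with the fold limit and 3005 to 4447 with 1 array left out. Repeating quantile normalization split the DMSO calls into 528 higher and 453 lower, against 320 and 719.

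With group means taken out, same-numbered arrays correlated at -0.06 to 0.20, not all over 0.1. These values cannot decide whether such arrays share more than a number. Of the 12 arrays, 8 correlated best with their own number, a hint from the data and not the design. With the replicate number as a block, erlotinib raised 4928 and lowered 4489 genes in the pre-miR-371 line and raised 5282 and lowered 4700 in the GFP vector line, and no call of a member changed. Signal limits BCL2 and BCL2A1, whose probe sets all average under 6.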
